A study of Mus musculus with 18 samples.

Results

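The genes that switch on in turn as a cortical stem cell becomes a neuron were followed through the 4 deposited expression tables, 10 in all: *Pax6*, *Neurog1*, *Neurog2*, *Gadd45g*, *Btg2*, *Hes6*, *Eomes*, *Insm1*, *Neurod4* and *Neurod1*. They were chosen by name, and where a table listed a name more than once, its most abundant entry was taken. All 10 were found in each table, among 23138 gene names in the hippocampal table, 23398 in the neurosphere table, and 54429 in each of the cortical and *Rnf2* tables. The 18 libraries were made from poly(A) RNA of postnatal day 0 mice. In the first table, 3 control and 3 *Kdm2b* conditional knockout (cKO) hippocampi were compared. The second held 2 control and 2 cKO cultures of neurospheres, which are floating balls of neural stem and progenitor cells, grown from such hippocampi with FGF2 and EGF over several passages. The third held 2 control and 2 *Kdm2b* cKO cortices, and the fourth 2 control and 2 *Rnf2* cKO hippocampi. Controls carried floxed alleles (*Kdm2b*fl/+ or *Kdm2b*fl/fl, and *Rnf2*fl/+ or *Rnf2*fl/fl), and the labels do not tell 1 floxed allele from 2. The cKO mice were *Kdm2b*Emx1-delta-CxxC, in which *Emx1*-Cre removed only the exon for the CxxC zinc finger of KDM2B, or *Rnf2*Emx1-cKO. *Emx1*-Cre acts in the progenitors of the dorsal telencephalon and their descendants, so that cells of other origin in the dissected tissue (vessels, microglia, meninges and interneurons from the ventral telencephalon) kept the gene. The labels do not say whether libraries of a group came from separate animals or cultures, so that the p-values below measure only the spread between these libraries.

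In the developing cortex and hippocampus, PAX6 is made by radial glia, the stem cells that line the ventricle. Proneural factors of the basic helix-loop-helix family (NEUROG1 and NEUROG2) then commit a cell to the neuronal fate and raise *Eomes*, also known as *Tbr2*, which marks intermediate progenitor cells, and these divide to give neurons that turn on *Neurod1*. KDM2B recruits a variant of Polycomb repressive complex 1 to CpG islands through its CxxC finger, which binds unmethylated CpG, and RNF2 is a catalytic subunit of this complex, which ubiquitylates histone H2A.

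Since the removed finger reads CpG, the bases before the start of 4 cascade genes that were higher in *Kdm2b* cKO hippocampi are shown, 250 each, from RefSeq on GRCm38.p6, read 5′ to 3′ along the gene, with each CpG in capitals. They are *Neurog2* (chr3:127632886-127633135, plus strand, 8 CpG), *Eomes* (chr9:118477939-118478188, plus strand, 8 CpG), *Btg2* (chr1:134079156-134079405, minus strand, 27 CpG) and the first of 2 listed *Neurod4* starts (chr10:130280255-130280504, minus strand, 2 CpG).
Neurog2: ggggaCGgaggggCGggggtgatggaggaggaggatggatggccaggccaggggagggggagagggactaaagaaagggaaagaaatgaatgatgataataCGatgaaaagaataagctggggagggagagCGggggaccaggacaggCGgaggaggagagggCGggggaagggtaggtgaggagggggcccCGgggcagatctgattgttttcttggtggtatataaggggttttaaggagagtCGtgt
Eomes: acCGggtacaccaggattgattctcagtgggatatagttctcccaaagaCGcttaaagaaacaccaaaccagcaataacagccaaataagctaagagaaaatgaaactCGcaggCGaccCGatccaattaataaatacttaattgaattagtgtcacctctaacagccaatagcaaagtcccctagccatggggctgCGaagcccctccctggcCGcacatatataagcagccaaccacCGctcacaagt
Btg2: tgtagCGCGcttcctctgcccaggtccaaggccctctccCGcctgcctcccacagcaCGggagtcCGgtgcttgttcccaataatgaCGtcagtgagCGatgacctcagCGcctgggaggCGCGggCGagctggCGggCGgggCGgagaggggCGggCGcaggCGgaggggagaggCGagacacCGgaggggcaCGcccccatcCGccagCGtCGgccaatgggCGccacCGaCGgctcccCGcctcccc
Neurod4: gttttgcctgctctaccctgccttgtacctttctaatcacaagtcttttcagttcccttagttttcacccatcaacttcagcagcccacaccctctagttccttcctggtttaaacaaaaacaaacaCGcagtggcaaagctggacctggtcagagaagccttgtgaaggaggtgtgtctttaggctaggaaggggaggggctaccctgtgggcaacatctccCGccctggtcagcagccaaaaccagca
The 4 stretches shown ranged from a CpG-dense one (*Btg2*) to one with few CpG (*Neurod4*). Over these 250 bases the ratio of observed to expected CpG was 0.81 for *Btg2*, 0.71 for *Neurog2*, 0.62 for *Eomes* and 0.12 for this *Neurod4* start (0.38 for the other, with 7 CpG), against a median of 0.37 over 32851 windows. A window was found for 9 of the 10 genes (12 windows), with none for *Insm1*. The ratio was highest for one of the 2 *Pax6* windows (1.06) and was 0.92 for *Neurog1* and 0.84 for *Neurod1*. Ratios above the median were found both for genes called in cKO hippocampi and for genes not called there, and the one ratio below it was that of the first *Neurod4* start. These ratios cover only the bases before the start. CpG islands were not examined, so that the ratios do not tell whether a gene has one. In the 250 bases before the start, both strands were searched for CAGATG, an E-box of the kind that NEUROG and NEUROD proteins bind, CAGCTG, another E-box, CACNAG, the N-box of HES repressors, and CTTTGA, the core of the TCF/LEF motif. CAGATG and CTTTGA were in none of the 12 windows, while 14.4% and 13.8% of all windows held them. CAGCTG was found before *Hes6* and *Gadd45g* (13.0% of all windows), and CACNAG before *Hes6*, *Pax6*, *Eomes*, *Neurod4* and *Gadd45g* (36.7% of all windows). Such a match is a run of letters and no measurement of binding, and the 2 *Neurod4* windows overlap.

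The values used were FPKM (fragments scaled for transcript length and for the number of fragments mapped), a level per length that allows genes to be compared within a library. Reads were recovered from the cortical and *Rnf2* values by taking the smallest positive product of value and gene length in a library as 1 read. The lower values, the only ones checked, all came out as whole numbers of reads within 0.02. These reads summed to between 14654900 and 21884600 on named genes per library. The hippocampal and neurosphere values do not give the depth of each library. Libraries of a group correlated with each other at r of 0.968 or more across genes, and none held the same values as another. Control library 1 of the neurospheres stood apart: 29.3% of its summed FPKM lay in entries without a gene name, against 0.876% to 1.95% in the other 3. With the neurosphere libraries rescaled to one total, 1256 genes were called higher and 830 lower, in place of 1392 and 1620. The tissue labels fitted the markers: the summed level of 6 hippocampal markers was 115 to 162 FPKM in the hippocampal libraries of the *Kdm2b* table, 65.3 to 87.4 in those of the *Rnf2* table and 11.8 to 16.0 in the cortical ones, while 6 neocortical markers summed to 285 to 311 in the cortex, 135 to 171 in the hippocampi of the *Kdm2b* table and 122 to 138 in those of the *Rnf2* table. These sums are set side by side across tables that were normalized separately. The targeted genes did not differ past the threshold as whole genes, with *Kdm2b* at 29.4 ± 2.15 FPKM in control and 27.2 ± 0.992 in cKO hippocampi (SD, n = 3), and *Rnf2* at 32.3 and 30.8 in control and 28.5 and 27.8 in *Rnf2* cKO hippocampi. These whole-gene levels do not measure the removed exons.

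A change was called where limma on log2(FPKM + 1), fitted over every gene that averaged 0.5 FPKM or more, gave a log2 fold change beyond 0.4 in size and an unadjusted p under 0.05. Adjusted p-values are Benjamini-Hochberg values over all genes tested, and each log2 fold change is on the log2(FPKM + 1) scale, which understates the change of low genes.

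In *Kdm2b* cKO hippocampi, 6 of the 9 cascade genes that could be tested rose and none fell by limma: *Neurog2*, *Eomes*, *Neurod4*, *Pax6*, *Btg2* and *Gadd45g*. All 6 calls also held at an adjusted p under 0.05. Of all 13446 genes tested there, 3.89% were called higher and 2.25% lower (2.94% and 1.47% with adjusted p). In 7 of the 9 genes every cKO library lay above every control, as for 14.9% of all genes. The median log2 fold change of the 9 was 0.68, against 0.0084 over all genes. Because these are bulk tissue libraries, more cells of a type and more RNA per cell cannot be told apart.

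The largest change was in *Neurog2* (ENSMUSG00000027967, chromosome 3 from 127633135 to 127635631 in the coordinates deposited with the cortical values, GRCm38), the proneural factor that commits radial glia to the glutamatergic lineage. Its level was 9.25, 10.7 and 8.69 FPKM in the 3 controls and 26.1, 24.8 and 30.7 in the 3 cKO libraries. The groups were far apart. Its log2 fold change was 1.42 ± 0.095 (SE), with a limma adjusted p of 0.00012. *Eomes* (ENSMUSG00000032446, chromosome 9 from 118478212 to 118486132), the T-box factor of intermediate progenitors, stood at 14.8, 16.3 and 13.4 FPKM in controls and 32.8, 33.3 and 36.5 in cKO hippocampi. Again no library of one group came near the other, and the log2 fold change was 1.16 ± 0.077 (limma adjusted p = 0.00012). *Neurod4* (ENSMUSG00000048015, chromosome 10 from 130268152 to 130280240), a later bHLH factor of the same cascade, was low but apart, at 1.61, 2.03 and 1.81 FPKM in controls and 3.80, 3.44 and 4.84 in cKO, a log2 fold change of 0.83 ± 0.13 (limma adjusted p = 0.0067).

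At the radial glial end, *Pax6* (ENSMUSG00000027168, chromosome 2 from 105668900 to 105697364) rose by 0.83 ± 0.10 on the log2 scale (limma adjusted p = 0.0031). The 3 controls lay at 5.24, 5.37 and 5.82 FPKM, and the 3 cKO libraries at 11.8, 10.9 and 8.97, with no overlap. *Btg2* (ENSMUSG00000020423, chromosome 1 from 134075170 to 134079120), an antiproliferative gene that marks progenitors about to make neurons, had 4.56, 4.96 and 5.54 FPKM in controls and 7.30, 8.84 and 9.85 in cKO hippocampi. The cKO libraries of *Btg2* all lay above the controls, by a log2 fold change of 0.68 ± 0.11 (limma adjusted p = 0.0096). *Gadd45g* (ENSMUSG00000021453, chromosome 13 from 51846678 to 51848468), a growth arrest gene that proneural factors induce, showed the smallest of the 6 calls, 0.52 ± 0.11 (limma adjusted p = 0.022), from 18.6, 15.1 and 16.0 FPKM to 20.9, 23.9 and 28.3.

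The other 4 genes were not called. *Neurod1* (ENSMUSG00000034701, chromosome 2 from 79452521 to 79456751), the bHLH factor of newborn granule neurons and the most abundant of the 10 in both hippocampal tables, had 86.4, 97.1 and 90.8 FPKM in controls and 109, 116 and 112 in cKO hippocampi. All cKO libraries were above all controls and the limma adjusted p was 0.014, but the log2 fold change of 0.29 ± 0.054 was below the threshold of size. *Hes6*, an antagonist of HES1 that proneural factors induce, lay at 48.4, 47.7 and 53.0 FPKM in controls and 57.2, 56.5 and 44.3 in cKO, so that the groups overlapped (log2 fold change 0.074 ± 0.093). *Insm1*, a zinc finger factor needed for the formation of basal progenitors, also overlapped, at 39.1, 33.2 and 36.0 FPKM against 40.5, 30.2 and 28.5 (log2 fold change -0.14 ± 0.12). *Neurog1*, the relative of *Neurog2*, was too low to be tested, between 0 and 0.119 FPKM in controls and between 0.0387 and 0.397 in cKO hippocampi. *Insm1* and *Hes6* thus overlapped with controls in the same libraries in which *Neurog2* and *Eomes* lay above all of them.

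**Figure D1:**
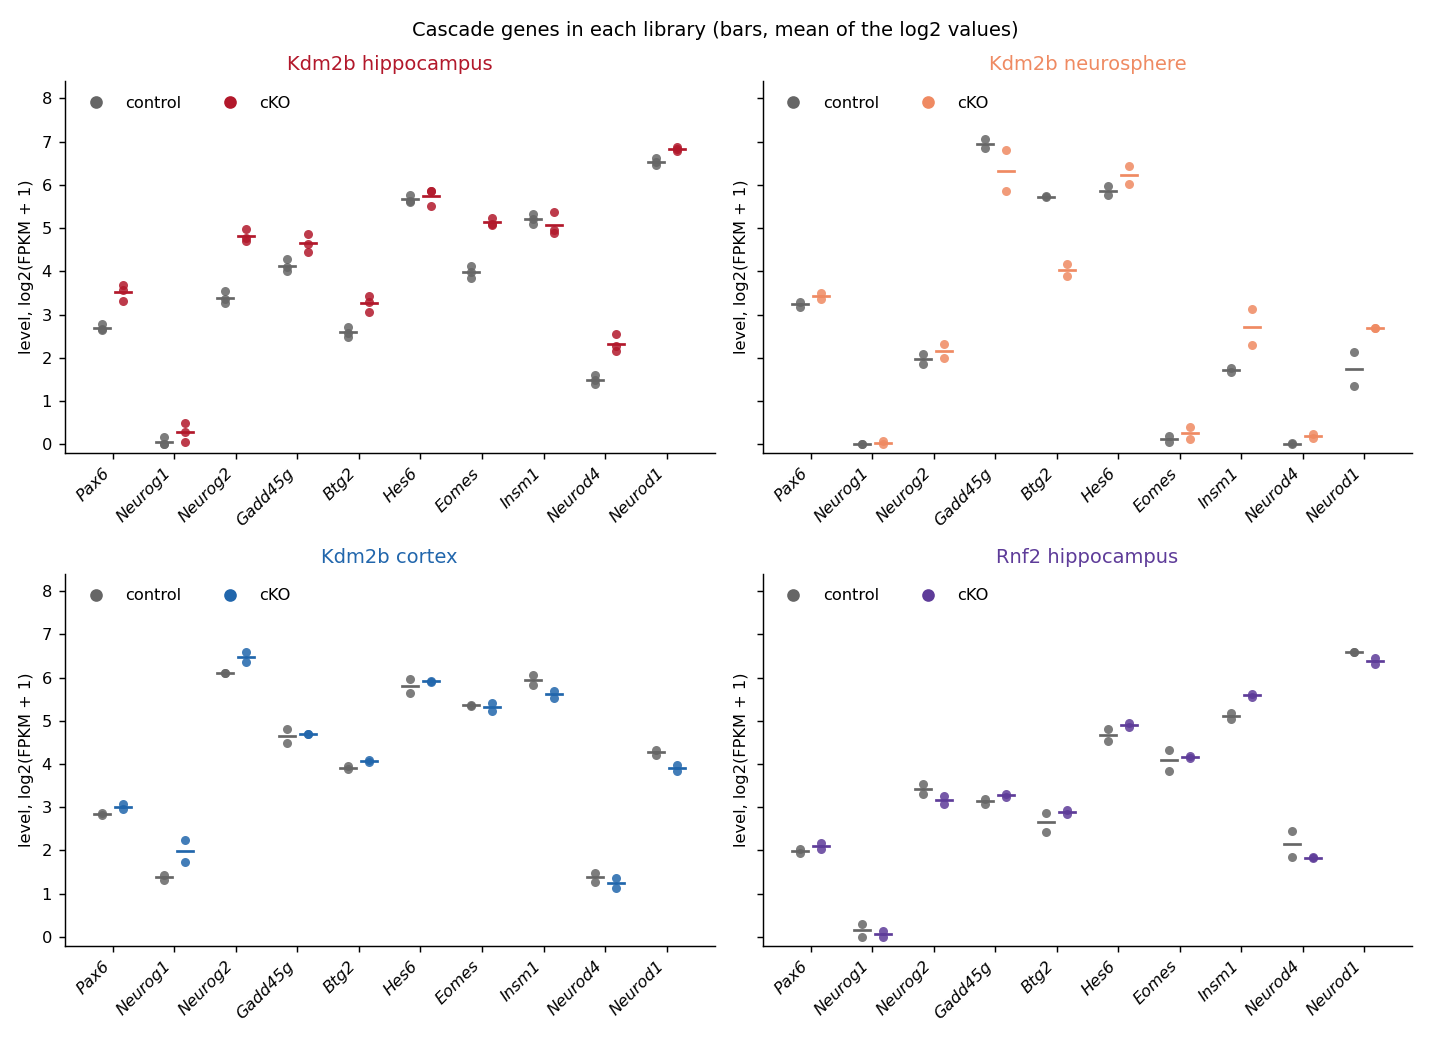
Level of each cascade gene in each library, as log2(FPKM + 1) on the vertical axis, with genes in stage order on the horizontal axis; grey points are controls, coloured points cKO libraries and bars the mean of each group, with 3 libraries per group in the Kdm2b hippocampal panel and 2 in the others. In the hippocampal panel the coloured points of 7 tested genes lie wholly above the grey ones, and in the neurosphere panel Btg2 lies below and Neurog1, Eomes and Neurod4 lie near 0.

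Level order within the control hippocampi ran from *Neurod1* (91.4 ± 5.38 FPKM, SD, n = 3) through *Hes6* (49.7 ± 2.87), *Insm1* (36.1 ± 2.95), *Gadd45g* (16.6 ± 1.79), *Eomes* (14.8 ± 1.47), *Neurog2* (9.54 ± 1.02), *Pax6* (5.48 ± 0.306), *Btg2* (5.02 ± 0.491) and *Neurod4* (1.81 ± 0.211) down to *Neurog1* (0.0397 ± 0.0688). Neighbours in that order had separate ranges except for *Gadd45g* and *Eomes*, and *Pax6* and *Btg2*. In cKO hippocampi *Eomes* (34.2 ± 2.01) stood above *Gadd45g* and just above *Insm1*, with a range that overlapped that of *Insm1* (33.1 ± 6.52), and *Neurog2* (27.2 ± 3.09) overlapped *Insm1* above it and *Gadd45g* (24.4 ± 3.72) below it. In controls both had lain below *Insm1* in every library.

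The same order was different in the other preparations. Cortical controls had *Neurog2* at the top (67.6 and 67.8 FPKM), *Eomes* at 39.7 and 40.2, and *Neurod1* only at 19.0 and 17.5. Control neurospheres were led by *Gadd45g* (114 and 131 FPKM), *Hes6* (61.6 and 53.2) and *Btg2* (52.4 and 51.3), while *Eomes* (0.0397 and 0.149), *Neurod4* (0 and 0.0173) and *Neurog1* (listed at 0 in both) were close to absent. In these control cultures *Pax6* (8.84 and 7.97) lay above *Neurog2* (3.25 and 2.64), and the range of *Neurog2* overlapped that of the later gene *Neurod1* (1.55 and 3.38). Control hippocampi of the *Rnf2* table were again led by *Neurod1*, at 95.3 and 95.9 FPKM, but *Insm1* (32.1 and 35.4) lay above *Hes6* (27.0 and 22.1), and *Gadd45g* (7.41 and 8.16) below *Eomes* (13.4 and 18.9) and *Neurog2* (8.88 and 10.6). Because the tables were normalized separately, the levels of the cascade genes were compared only within a table.

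In *Kdm2b* cKO neurospheres, 2 of the 7 testable genes rose and 1 fell by limma, and all 3 calls held with adjusted p. Of all 12227 genes, 11.4% were called higher and 13.2% lower (9.13% and 10.2% with adjusted p), so that calls were frequent in this table in general. Of the 7, 4 had both cKO libraries above both controls and 2 below, against 32.1% and 34.4% of all genes. *Btg2* fell, from 52.4 and 51.3 FPKM in controls to 13.7 and 17.1 in cKO cultures (log2 fold change -1.70 ± 0.11, limma adjusted p = 0.0014), the opposite direction to its change in the hippocampus. *Insm1* rose from 2.40 and 2.17 FPKM to 3.92 and 7.76 (1.00 ± 0.27, limma adjusted p = 0.049), and *Neurod1* from 1.55 and 3.38 to 5.40 and 5.46 (0.94 ± 0.26, limma adjusted p = 0.049). Both of these stood low in culture, and the *Insm1* call was lost without control library 2 (limma unadjusted p = 0.055, log2 fold change 0.95). *Gadd45g* had 114 and 131 FPKM in controls and 57.1 and 110 in cKO cultures, a change that did not pass (-0.62 ± 0.29, limma adjusted p = 0.18), although it was called lower without cKO library 2. *Pax6* (8.84 and 7.97 against 9.31 and 10.3 FPKM), *Neurog2* (3.25 and 2.64 against 2.97 and 4.01) and *Hes6* (61.6 and 53.2 against 64.1 and 85.6) were not called. *Eomes*, *Neurod4* and *Neurog1* were below the level required for the test, at 0.321 FPKM at most in any cKO culture.

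Markers of other cells moved with genotype in these cultures. All 5 astrocyte markers were called lower, with a summed level of 168 and 198 FPKM in controls against 22.8 and 21.6 in cKO cultures. Of 6 oligodendrocyte lineage markers 4 were called lower, while the summed level of the 6, 2497 and 2415 against 2516 and 2454, overlapped. Most of that sum was *Olig1* (1774 and 1706 against 1956 and 1885 FPKM) and *Olig2*, which were not called. *Gpr17*, by contrast, went from 92.7 and 107 FPKM to 5.55 and 5.10. Of the 6 markers of cultured progenitors, 3 were called higher (*Mki67*, *Nes* and *Egfr*), as were 2 of 3 testable GABAergic markers (*Dlx1* and *Dlx2*). Their part in the cascade values was not tested.

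In *Kdm2b* cKO cortices, 1 of 10 genes was called higher and none lower by limma, with none at an adjusted p under 0.05. Of all 15691 genes, 4.73% were called higher and 2.28% lower (0.37% and 0.0574% with adjusted p). The one call was *Neurog1* (ENSMUSG00000048904, chromosome 13 from 56250478 to 56252163): 1.70 and 1.51 FPKM in controls and 3.72 and 2.32 in cKO cortices (0.61 ± 0.19, limma unadjusted p = 0.023, adjusted p = 0.30). These values rest on 63 and 54 reads in controls and 123 and 73 in cKO, and the call was lost when control library 1, control library 2 or cKO library 1 was left out, with an unadjusted p of 0.057, 0.093 and 0.071 from the limma model fitted across all genes. *Neurog2* lay at 67.6 and 67.8 FPKM in controls and at 94.9 and 81.5 in cKO cortices, apart but under the size threshold (0.37 ± 0.10, limma adjusted p = 0.25). *Eomes* did not follow it, with 39.7 and 40.2 FPKM against 41.6 and 36.3 (-0.039 ± 0.094). *Insm1* (55.9 and 66.0 against 50.9 and 45.2 FPKM) and *Neurod1* (19.0 and 17.5 against 14.6 and 13.3) were lower in every cKO library, by 0.33 ± 0.12 and 0.36 ± 0.087 on the log2 scale, values under the size threshold. Of the 10, 4 had both cKO libraries above both controls and 2 below, against 22% and 22.8% of all genes.

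Markers of other cells moved in the cortex too. The 4 meningeal markers were all called higher, with a summed level of 0.812 and 1.37 FPKM in controls against 23.0 and 15.0 in cKO cortices, and 2 of 3 blood markers were called higher (370 to 414 against 554 to 626 FPKM in sum), as were 2 of 5 microglial, 1 of 4 endothelial and 1 of 6 oligodendrocyte lineage markers. Of 2 testable astrocyte markers 1 was called higher, *Gja1*, from 1.41 and 1.42 to 6.60 and 6.02 FPKM (limma adjusted p = 0.016). Astrocyte markers summed to 5.99 and 6.70 FPKM in controls against 10.62 and 10.97 in cKO cortices, a rise that was that of *Gja1*. The others overlapped between genotypes, among them *Aldh1l1*, at 3.77 and 4.44 FPKM in controls against 3.56 and 4.05 in cKO. Their part in the cortical values was not tested.

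In *Rnf2* cKO hippocampi, 1 of 9 testable genes was called higher and none lower by limma. Of all 15764 genes, 2.86% were called higher and 1.85% lower, and 0% in either direction with adjusted p. The call was *Insm1* (ENSMUSG00000068154, chromosome 2 from 146221921 to 146225020), at 32.1 and 35.4 FPKM in controls and 48.3 and 46.2 in cKO hippocampi (0.47 ± 0.11, limma adjusted p = 0.56). Its unadjusted p was 0.0057 in the limma model fitted across all genes, and 0.063 without cKO library 1, which ended the call. The genes that led in *Kdm2b* cKO hippocampi were not called here. *Neurog2* had 8.88 and 10.6 FPKM in controls and 7.42 and 8.52 in *Rnf2* cKO hippocampi, every cKO library being below (-0.26 ± 0.14). *Eomes* overlapped, with 13.4 and 18.9 FPKM against 17.3 and 16.5 (0.081 ± 0.18), and *Pax6* had 3.08 and 2.87 against 3.11 and 3.52 (0.12 ± 0.14). *Neurod1* lay at 95.3 and 95.9 FPKM in controls and at 86.7 and 79.1 in cKO (-0.21 ± 0.11). Of the 9, 4 had both cKO libraries above both controls and 2 below, against 19.5% and 18.7% of all genes. Of the meningeal markers, 3 of 4 were called lower, with a summed level of 25.9 and 25.7 FPKM in controls against 11.2 and 17.96 in cKO, and choroid plexus markers summed to 50.9 and 13.3 against 242 and 8.76 FPKM. Called higher were 2 of 6 Cajal-Retzius cell markers (72.9 to 102 against 97.5 to 118 FPKM in sum) and 1 of 8 GABAergic markers (61.5 to 68.3 against 73.0 to 77.0). Their part in these values was not tested.

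**Figure D2:**
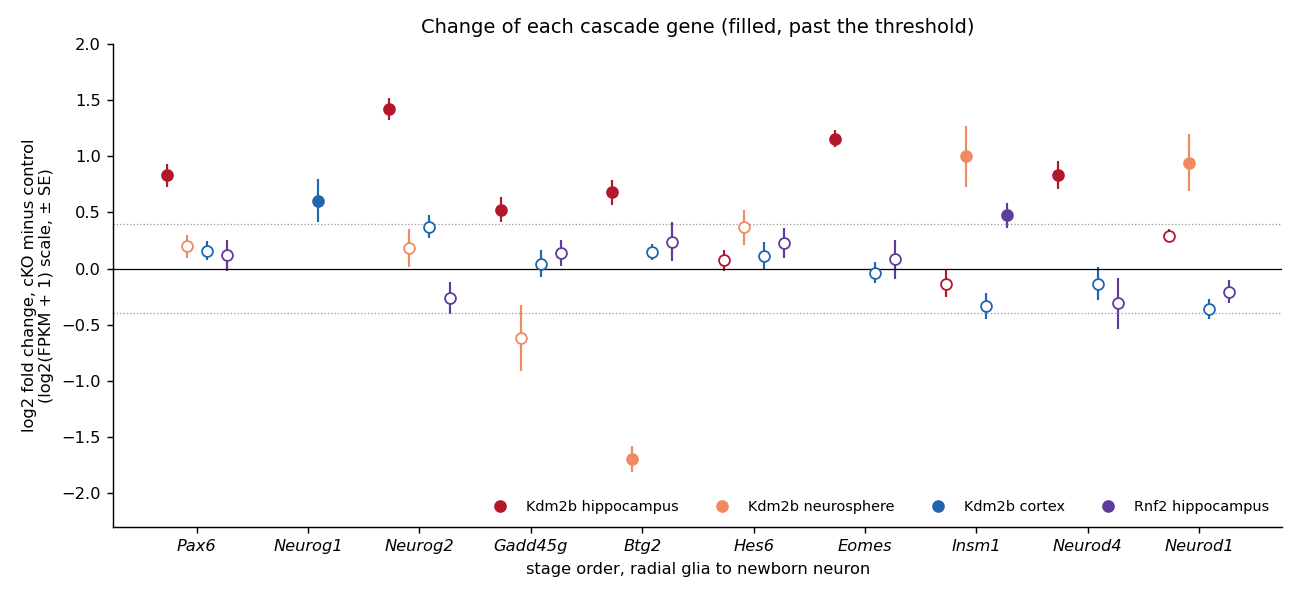
Log2 fold change of each tested cascade gene (cKO minus control, on the log2(FPKM + 1) scale, with standard error) in stage order from radial glia to newborn neuron, by comparison; filled points passed the threshold (log2 fold change beyond 0.4, dotted lines, and limma p under 0.05). The 6 filled hippocampal points run from 0.52 for Gadd45g to 1.42 for Neurog2, and the lowest point is Btg2 in neurospheres, at -1.70.

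Whether the hippocampal change differed from the others was tested by limma as the change in *Kdm2b* cKO hippocampi minus the change in another table, and the 3 tests share the hippocampal libraries. The tables were normalized separately, and differences of tissue or genotype between them cannot be told apart from other differences between the experiments. Against the cortex, 7 of 9 genes differed by more than 0.4 at an unadjusted p under 0.05, and 5 with adjusted p (6.97% and 1.6% of all 10708 genes). The 5 were *Eomes* (difference 1.19 ± 0.12, limma adjusted p = 0.00056), *Neurog2* (1.05 ± 0.14, 0.0039), *Neurod1* (0.66 ± 0.098, 0.0075), *Neurod4* (0.96 ± 0.19, 0.034) and *Pax6* (0.67 ± 0.15, 0.046). Thus *Neurog2* was higher in all cKO libraries of both tissues but changed more in the hippocampus, and *Eomes*, called in the hippocampus and not in the cortex, also differed by the test of the difference itself.

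Against *Rnf2* cKO hippocampi, 6 of 9 differed at an unadjusted p and 2 with adjusted p (8.85% and 0.683% of all 11266 genes). The 2 were *Neurog2* (1.68 ± 0.17, limma adjusted p = 0.0021) and *Eomes* (1.07 ± 0.18, limma adjusted p = 0.020). *Insm1* gave a difference of opposite sign (-0.61 ± 0.18, limma adjusted p = 0.13). Against neurospheres, 6 of 7 differed at an unadjusted p and 5 with adjusted p, in a contrast in which 26.8% and 22.4% of all 11075 genes did so. *Btg2* differed most (2.37 ± 0.17, limma adjusted p = 9.2e-06), being higher in cKO hippocampi and lower in cKO neurospheres, and *Insm1* differed in the other direction (-1.14 ± 0.29, limma adjusted p = 0.015). *Neurog2* (1.24 ± 0.19, 0.00081), *Gadd45g* (1.14 ± 0.31, 0.018) and *Pax6* (0.63 ± 0.15, 0.012) also differed, the second value of each being the limma adjusted p. *Hes6* did not differ past the threshold in any of the 3 tests.

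**Figure D3:**
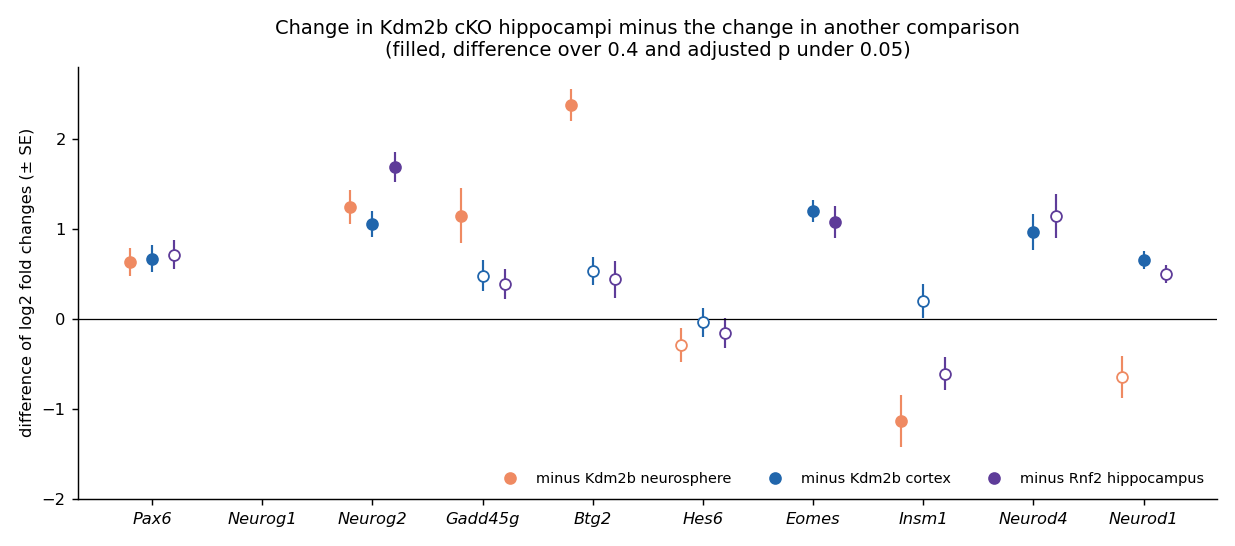
Difference between the log2 fold change in Kdm2b cKO hippocampi and that in another comparison, with standard error, for each cascade gene tested in both; filled points had a difference over 0.4 in size and a limma adjusted p under 0.05. Neurog2 is filled against all 3 comparisons (1.05 to 1.68), and Insm1 lies at -1.14 against neurospheres.

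Ratios between consecutive stages within a library do not depend on its scaling. Those taken were *Neurog2* to *Pax6*, *Eomes* to *Neurog2* and *Neurod1* to *Eomes*, which gave 10 ratios over the 4 tables, since *Eomes* was too low in culture. In control hippocampi the log2 ratio of *Neurog2* to *Pax6* was 0.82, 0.99 and 0.58, and in cKO hippocampi 1.14, 1.19 and 1.78. Relative to *Pax6*, *Neurog2* was thus higher in every cKO library, by 0.57 in the mean. The log2 ratio of *Eomes* to *Neurog2* was 0.68, 0.61 and 0.62 in controls against 0.33, 0.42 and 0.25 in cKO, and that of *Neurod1* to *Eomes* 2.55, 2.57 and 2.76 against 1.73, 1.80 and 1.62. *Neurod1* was thus about 6.18 times *Eomes* in controls and 3.29 times in cKO hippocampi (geometric means), a mean log2 difference of -0.91. For each of the 3, the groups did not overlap, and the exact permutation test (two-sided) gave its smallest possible p of 0.1 with 3 against 3, so that none could pass 0.05.

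In the cortex the same 3 differences of mean log2 ratio were 0.19, -0.42 and -0.34, of the same signs as in *Kdm2b* cKO hippocampi. In *Rnf2* cKO hippocampi they were -0.44, 0.38 and -0.29, so that the first 2 had the other sign. The groups were apart in all 6 of these, with an exact permutation p of 0.333, the smallest that 2 against 2 allows. In neurospheres the ratio of *Neurog2* to *Pax6* overlapped between genotypes (-1.44 and -1.60 in controls, -1.65 and -1.36 in cKO, exact permutation p = 1). The ratio of *Neurod1* to *Eomes* was lower in the cKO libraries of all 3 tissue tables, but in *Rnf2* hippocampi the groups nearly touched. There the log2 ratio was 2.83 and 2.34 in controls against 2.33 and 2.26 in cKO, and the difference was -0.047 without control library 1.

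**Figure D4:**
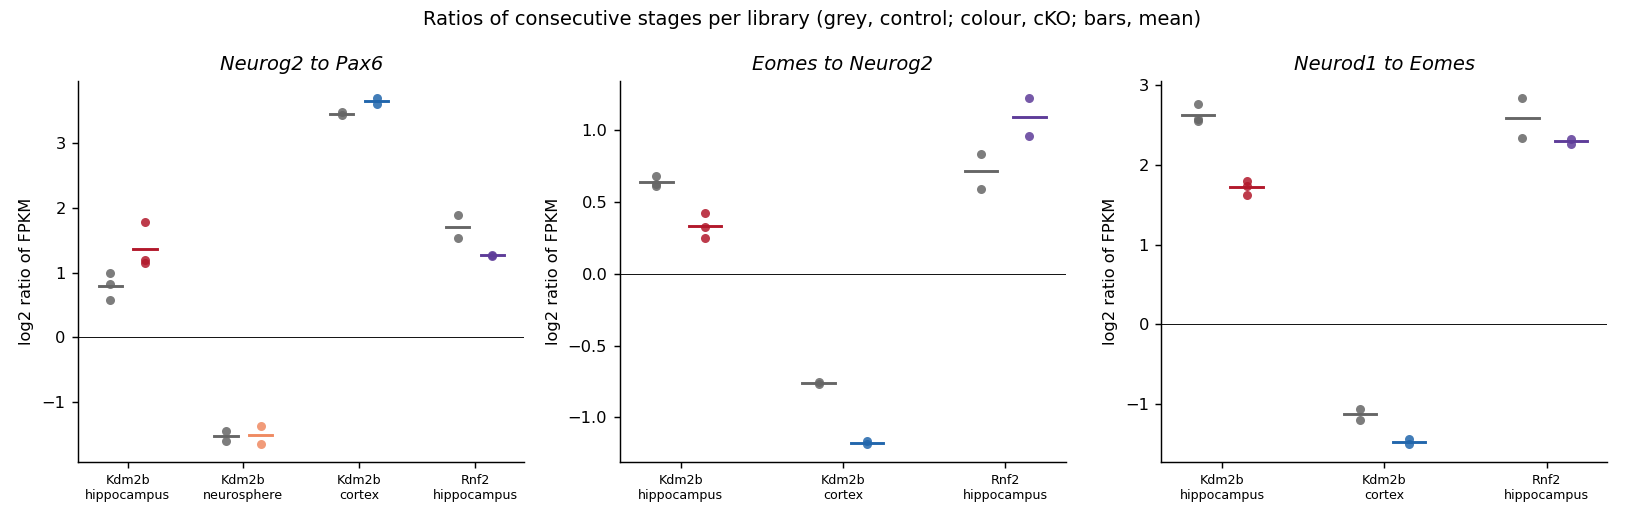
Log2 ratio of FPKM between consecutive cascade genes in each library, by comparison, with controls in grey, cKO in colour and bars for the mean; neurospheres are shown only for Neurog2 to Pax6. In Kdm2b cKO hippocampi the mean of Neurog2 to Pax6 rises from 0.80 to 1.37 and that of Neurod1 to Eomes drops from 2.63 to 1.72, without overlap.

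Other genes of the same stages were taken from 4 lists. Of 16 further radial glial genes, 7 rose and none fell in *Kdm2b* cKO hippocampi by limma, all 7 also with adjusted p, and the median log2 fold change was 0.29. The 3 largest were *Gli3*, a transcription factor of the hedgehog pathway needed for hippocampal development (3.51 to 6.85 FPKM, log2 fold change 0.78), *Sox9*, a stem cell factor (10.3 to 17.1, 0.68), and *Hes1*, the Notch effector that represses proneural genes (4.30 to 6.96, 0.60). Of 12 other intermediate progenitor genes, 4 rose and none fell, all 4 with adjusted p, with a median of 0.22. These were *Cdkn1c*, an inhibitor of the cell cycle (14.0 to 27.0 FPKM, 0.92), *Chd7*, a chromatin remodeller (9.24 to 17.1, 0.83), *Tfap2c* (7.52 to 13.9, 0.81), a transcription factor of basal progenitors, and *Nhlh1* (6.76 to 10.1, 0.51). Of 15 proneural partners and Notch genes, 3 rose and none fell (median 0.16): *Hes1*, which is in both lists, *Dll3*, a divergent Notch ligand (5.53 to 8.58 FPKM, 0.57), and *Numb* (3.27 to 4.67, 0.41), the last not with adjusted p (0.060 by limma). Of 17 genes of newborn neurons, none rose and 1 fell, *Bcl11b* (19.2 to 13.4 FPKM, -0.52, limma adjusted p = 0.062), and the median was -0.055. These counts stand beside 3.89% of all genes called higher and 2.25% lower, and the lists were not tested against each other.

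In neurospheres, radial glial genes went both ways, with 2 called higher (*Vim*, 1255 to 2886 FPKM, log2 fold change 1.18, and *Nes*) and 5 lower, among them *Hes5* (21.1 to 10.5, -0.94) and *Id4* (25.3 to 13.1, -0.91). Of the 15 proneural partners and Notch genes 7 fell and none rose by limma, led by *Id3* (111 to 56.9 FPKM, -0.96), *Hes5* and *Hes1* (23.6 to 12.2, -0.89). Of 7 testable intermediate progenitor genes 3 rose and 1 fell, and that one was *Cdkn1c* (23.7 to 10.5 FPKM, -1.11), which had risen in cKO hippocampi. Of 11 testable genes of newborn neurons, 3 rose and 2 fell, with *Dcx*, which encodes the microtubule protein doublecortin, going from 5.45 to 0.388 FPKM (-2.21). This stands beside the 11.4% of all genes called higher and 13.2% called lower in culture. In the cortex each of the first 3 lists had 1 call, all higher (*Nes*, 23.0 to 36.5 FPKM; *Id3*, 4.77 to 8.07; *Cdkn1c*, 30.7 to 49.6), and *Nhlh2* was the one newborn neuron gene called, lower (4.42 to 2.76), beside 4.73% and 2.28% of all genes called higher and lower there. None of these cortical calls held with adjusted p. In *Rnf2* cKO hippocampi, *Hes1* (3.12 to 4.94 FPKM), *Rcor2* (25.4 to 38.7) and *Trnp1* (15.1 to 21.9) were called higher and *Ptprz1* lower (60.0 to 43.7), none with adjusted p, and no newborn neuron gene was called by limma, beside 2.86% and 1.85% of all genes.

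**Figure D5:**
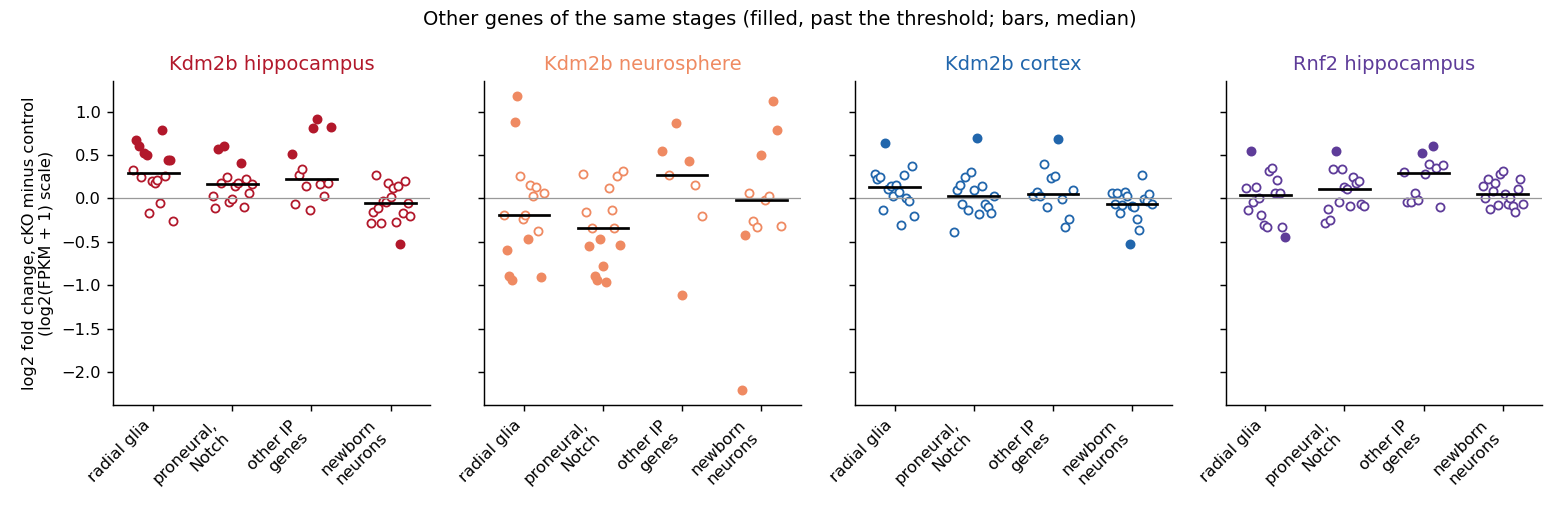
Log2 fold change (cKO minus control, log2(FPKM + 1) scale) of each tested gene of 4 lists of other genes of the same stages, by comparison; filled points passed the threshold and bars are medians. In Kdm2b cKO hippocampi 7 radial glial and 4 intermediate progenitor genes are filled above 0, and the medians run from 0.29 for radial glia to -0.055 for newborn neurons.

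Markers of other cell types moved in part with genotype in the *Kdm2b* hippocampal table. Of 4 testable choroid plexus markers 3 were called higher, none with adjusted p, and their summed level was 6.47, 5.37 and 17.1 FPKM in controls and 61.0, 43.6 and 8.15 in cKO. In cKO library 3 this sum, most of it *Ttr* (5.29), lay within the range of the controls. Its *Otx2* (1.23 FPKM) and *Clic6* (0.390) lay above every control (at most 0.943 and 0.381). The same library had the highest *Neurog2*, *Eomes*, *Neurod4*, *Btg2* and *Gadd45g* of all 6 libraries, but the lowest *Pax6* of the 3 cKO libraries. Of 6 Cajal-Retzius cell markers, 2 were called higher (*Lhx1* and *Ebf3*), with overlapping sums of 113 to 148 and 118 to 154 FPKM. Of 4 testable thalamic markers 2 were called higher (*Lhx9*, which is also in the hippocampal list, and *Tcf7l2*), with sums of 26.1 to 29.9 against 36.9 to 40.1 FPKM, and 2 of 5 microglial markers were called higher (26.6 to 32.2 against 34.0 to 44.4). Of 5 astrocyte markers 2 were called lower (*Aqp4* and *S100b*), and *Aldh1l1* and *Gja1*, not called, were also lower in every cKO library. *Gfap* had a higher mean in cKO but overlapped, at 67.0 to 87.3 FPKM against 79.1 to 138. It made up most of the astrocyte sums, which overlapped at 112 to 133 and 110 to 178 FPKM. Of the 6 hippocampal markers 2 were called higher (*Lef1* and *Lhx9*) and none lower, with sums of 115 to 139 FPKM in controls against 146 to 162 in cKO. Of the 6 markers of cultured progenitors 2 were called higher (*Nes* and the cascade gene *Pax6*) and none lower, with sums of 77.3 to 83.0 against 89.4 to 107 FPKM. By limma none of 4 meningeal, 4 endothelial, 3 blood, 6 oligodendrocyte lineage or 8 GABAergic markers was called. The sums of the oligodendrocyte lineage markers were still apart, at 63.3 to 64.6 FPKM in controls against 53.4 to 56.7 in cKO. Among them *Olig1* was lower in every cKO library, under the size threshold (log2 fold change -0.35, limma adjusted p = 0.015). Of the 6, 2 had a log2 fold change above 0. The values of cKO library 3 are those of a single library and are given as a description. The part of these markers in the cascade values was not tested.

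Genes most like the mean profile of the cascade genes were sought over the 18 libraries, each centred on the control mean of its table. The mean profile was that of the 7 genes tested in all 4 tables, and 9605 genes were compared by Pearson's r, given as a description since libraries of a table share their control mean. The 5 closest genes outside the 10 were *Ngfr* (r = 0.92), *Zfp219* (0.92), *Ddr1* (0.92), *Evc* (0.91) and *Cdkn1b* (0.88). Each of the 7 is itself part of the mean profile, which raises its r, so that these values do not compare with those of the genes outside. Among the 7, r was 0.91 for *Pax6*, 0.88 for *Neurog2*, 0.72 for *Gadd45g* and 0.46 for *Btg2*. It was 0.26 for *Neurod1*, 0.19 for *Hes6* and -0.027 for *Insm1*, so that the profile was not shared by all 7. *Ngfr*, the low-affinity neurotrophin receptor, had log2 fold changes of 1.52 in hippocampi, 0.32 in neurospheres, -0.11 in cortices and 0.25 in *Rnf2* cKO hippocampi. Of these 7, *Pax6* and *Neurog2* had the highest r with the mean that holds them, and *Eomes*, *Neurod4* and *Neurog1* were not part of it.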

How the data were processed

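RNA-seq values of 18 libraries in 4 tables were analysed as deposited. For hippocampi and neurospheres the authors used cutadapt for trimming, STAR for alignment (mm10) and Cufflinks 2.2.1 for FPKM; for the cortical and *Rnf2* tables these steps are not given in the sources used here. The 4 tables hold FPKM values deposited by the authors, and the cortical and *Rnf2* ones were already on a common scale (median ratios between libraries within 0.0362% and 0.00866%). The authors' calls came from DESeq2 on counts, which were not used here.

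Groups came from the labels. Genes that averaged 0.5 FPKM or more were tested within a table by limma 3.58.1 in R 4.3.3, with trended empirical Bayes, on log2(FPKM + 1). The thresholds (log2 fold change 0.4, unadjusted p 0.05) follow the study's methods. Stage ratios were tested by exact permutation in scipy 1.17.1. The limma script was tested on simulated data. The 10 genes, the lists and the tests were chosen with earlier results of these data known. All 10 genes, the targeted genes, the 3 largest calls of each list and the 5 closest genes are named, and other genes were named after their values were seen. Some lists share genes, such as *Hes1* and *Hes5*. Alternatives were another pseudocount (0.1), other filters (none, 1 FPKM), other scalings, no trend, a replicate block, adjusted p, no size threshold, limma-voom on recovered reads, summed entries of a name, and leaving out each library.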

Additional observations from a re-analysis of the deposited data

Results flagged for a closer look

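The following differences between genotype effects passed limma's test of the difference with an adjusted p under 0.05, each given as the log2 effect in *Kdm2b* cKO hippocampi minus that in the other comparison. Against neurospheres they were 0.63 for *Pax6*, 1.24 for *Neurog2*, 1.14 for *Gadd45g*, 2.37 for *Btg2* and -1.14 for *Insm1*. Against cortices they were 0.67 for *Pax6*, 1.05 for *Neurog2*, 1.19 for *Eomes*, 0.96 for *Neurod4* and 0.66 for *Neurod1*. Against *Rnf2* cKO hippocampi they were 1.68 for *Neurog2* and 1.07 for *Eomes*. Among the 10 cascade genes, *Btg2* was the one called in opposite directions in 2 of the 4 comparisons.

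A second, lower entry named *Eomes* in the hippocampal table, which the comparisons did not use, had 0.301, 0.281 and 0.350 FPKM in controls and 0.999, 0.852 and 0.835 in cKO libraries (mean 0.895), every cKO library above every control. A second *Insm1* entry had 2.95 ± 0.137 FPKM in controls and 3.44 ± 0.644 in cKO libraries (SD, n = 3), and overlapped.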

How the results depend on the processing

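In *Kdm2b* cKO hippocampi the 6 calls higher were made under each alternative run (7 without the size threshold, with *Neurod1*), and none was lower. Differences against cortices and neurospheres stayed within 1.5 times the reported counts, and only 2 of the 6 against *Rnf2* cKO hippocampi passed with adjusted p. Counts elsewhere rested on few libraries. In neurospheres, 2 genes were called lower with the replicate block, and 2 with the crossed pairing, which was added after seeing the data; leaving out 1 library gave 1 to 3 higher and 1 to 2 lower, with 1 higher without control library 2 and 2 lower, *Gadd45g* added (-1.09), without cKO library 2. In cortices, 1 was called lower with equal FPKM totals, 0 higher with adjusted p, and 2 higher and 2 lower without the size threshold; leaving out 1 library gave 0 to 2 higher and 0 to 1 lower. In *Rnf2* cKO hippocampi, 0 were higher with adjusted p, and leaving out 1 library gave 0 to 2 higher and 0 to 1 lower. The cause was not tested.

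Signs turned for 5 small values that were not called. With 1 library left out, the cortical log2 fold change ran from -0.11 to 0.20 for *Gadd45g* and from -0.050 to 0.27 for *Hes6* (both below 0 without control library 2), and from -0.14 to 0.058 for *Eomes* (above 0 without cKO library 2). *Eomes* in *Rnf2* hippocampi ran from -0.16 (without control library 1) to 0.32. The *Hes6* difference against cortices was 0.026 with equal FPKM totals and ran from -0.20 to 0.12 with 1 library left out, above 0 without hippocampal control library 3 (0.0077), hippocampal cKO library 3 (0.079) or cortical control library 2 (0.12).

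Replicate numbers were not taken as pairs in the main model. Deviations of same-numbered libraries correlated at 0.049, -0.10 and -0.086 in hippocampi, -0.28 in neurospheres, -0.053 in cortices and 0.16 in *Rnf2* hippocampi. For *Rnf2* hippocampi, the replicate block gave 552 genes called higher and 437 lower, in place of 451 and 291. A pairing there was therefore not excluded. The 9 stage ratio differences of the tissue tables kept their sign with a pseudocount and without each library, while the neurosphere one (*Neurog2* to *Pax6*, 0.017) was below 0 with a pseudocount and ran from -0.13 to 0.16 with 1 library left out, below 0 without control library 2 or cKO library 2. Equal FPKM totals moved the neurosphere median of all genes from -0.011 to 0.094. Depth limited *Neurog1* most, with 0 to 6 reads in *Rnf2* hippocampi.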
